A study of Homo sapiens with 8 samples.

Results

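Chromosome 7 carried 2483 of the 48662 regions with acetylated lysine 27 of histone H3 (H3K27ac) found in ARID1A knockout or control MDA-MB-231 cells. A region is a stretch covered by peaks of either genotype, joined at an overlap of 1 bp or more, and it was classed as knockout-only, control-only or shared by which list had a peak in it. A segment of 10 Mb, from 60 to 70 Mb (hg38), held 71 of the regions and is set against the 2412 regions of the rest of the chromosome. The segment was chosen with earlier results of these data known. Members were chosen by the peak calls, and the classes come from those calls too, so class counts are given as a description and no test of them was made.

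MDA-MB-231 is an established triple-negative breast cancer line of mesenchymal character. The 8 libraries formed 4 groups of 2, namely ARID1A knockout immunoprecipitate, ARID1A knockout input, control immunoprecipitate and control input, and the knockout was the only stated difference between the genotypes. Clonal or pooled origin of the knockout cells is not in the labels, nor is whether replicates came from separate cultures. The values used were 1 peak list per genotype, so each value below is a single value without replicate error, and a difference between lists sets these libraries apart and not the genotypes as such.

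H3K27ac marks active promoters and enhancers and is written by the acetyltransferases p300 and CBP. ARID1A is a subunit of the BAF form of the SWI/SNF complex, which moves nucleosomes at enhancers and promoters. Chromosome 7 carries EGFR, MET, the HOXA cluster, the Williams syndrome segment and, near the centromere on the long arm, a group of KRAB zinc finger genes, whose proteins bind DNA and recruit the repressor TRIM28.

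The mark was taken from the titles and the sample characteristics, whereas the extraction protocol named an antibody to H3K4me3. Peak lists hold neither ARID1A protein nor its transcript, so the knockout was not checked by these values. Of 7 mesenchymal basal-like marker genes, 6 had a peak within 1 kb of a gene end in both lists and MSN had none, and on chromosome 7 these included EGFR (fold enrichment 25.3 in knockout and 20.3 in control) and CAV1 (22.3 in knockout and 16.9 in control). All 4 leukocyte markers had no peak in either list, as did the epithelial cadherin gene CDH1, while the luminal markers GATA3, FOXA1, EPCAM and KRT8 had a peak in both and ESR1 in knockout alone. Fold enrichment is the authors' ratio of a peak's fragment pileup over the background estimated for it, and pileup is the mean number of overlapping fragments over the peak. The depth of the libraries is unknown here, and so is how the lists were scaled.

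Shown first are the 5 promoters of the 60 to 70 Mb segment that a knockout-only region overlapped. The ZNF680 promoter also had a peak in the knockout list alone, but its region was shared, so it is not printed. The promoter sequences are those of RefSeq on GRCh38.p14, from 250 bases before to 50 bases after each start, 5′ to 3′ on the strand of the gene. All 5 lie on the plus strand. They are LINC02848 (chr7:63900590-63900889), LOC105375318 (chr7:63925655-63925954), ZNF727 (chr7:64045184-64045483), LOC100128885 (chr7:64574445-64574744) and LOC124901660 (chr7:65475834-65476133). ZNF727 is a protein-coding KRAB zinc finger gene, and LINC02848 is a long non-coding RNA gene. Capitals mark matches, on either strand, to any of these motifs, each counted on its own. The GC box was searched as GGGCGG and the CCAAT box by its own letters. The TATA box was searched as TATAAA, and the AP-1 site as TGANTCA.
LINC02848: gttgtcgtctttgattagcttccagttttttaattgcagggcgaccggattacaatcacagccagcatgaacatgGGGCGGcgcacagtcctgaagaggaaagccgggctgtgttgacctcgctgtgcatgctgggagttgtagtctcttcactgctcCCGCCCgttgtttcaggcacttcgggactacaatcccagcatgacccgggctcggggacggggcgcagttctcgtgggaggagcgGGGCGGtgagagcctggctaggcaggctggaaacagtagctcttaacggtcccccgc
LOC105375318: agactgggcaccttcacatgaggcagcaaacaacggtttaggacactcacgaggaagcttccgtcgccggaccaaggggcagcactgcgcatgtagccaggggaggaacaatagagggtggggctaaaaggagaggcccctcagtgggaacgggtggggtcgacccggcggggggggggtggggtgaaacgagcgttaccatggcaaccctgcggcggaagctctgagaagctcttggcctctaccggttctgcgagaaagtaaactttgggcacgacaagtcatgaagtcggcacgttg
ZNF727: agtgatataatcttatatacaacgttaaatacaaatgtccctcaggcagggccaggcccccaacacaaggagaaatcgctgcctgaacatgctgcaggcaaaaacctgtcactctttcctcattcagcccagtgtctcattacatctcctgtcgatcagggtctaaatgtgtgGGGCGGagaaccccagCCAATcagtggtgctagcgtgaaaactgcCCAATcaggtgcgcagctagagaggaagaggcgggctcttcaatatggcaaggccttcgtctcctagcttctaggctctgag
LOC100128885: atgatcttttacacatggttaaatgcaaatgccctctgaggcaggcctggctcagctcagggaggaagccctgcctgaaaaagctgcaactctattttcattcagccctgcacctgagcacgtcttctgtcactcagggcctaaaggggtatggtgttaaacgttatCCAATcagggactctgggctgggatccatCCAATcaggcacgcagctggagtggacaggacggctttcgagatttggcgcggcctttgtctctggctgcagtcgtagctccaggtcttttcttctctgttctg
LOC124901660: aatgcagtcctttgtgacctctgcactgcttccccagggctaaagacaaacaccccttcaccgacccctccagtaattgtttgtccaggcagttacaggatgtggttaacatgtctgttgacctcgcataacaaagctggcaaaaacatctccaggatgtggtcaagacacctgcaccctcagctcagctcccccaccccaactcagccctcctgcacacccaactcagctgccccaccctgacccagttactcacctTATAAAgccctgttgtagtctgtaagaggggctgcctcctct

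For comparison, these are the promoters of the strongest shared promoter peaks in the segment, RABGEF1 (chr7:66740483-66740782, plus strand) and TMEM248 (chr7:66920975-66921274, plus strand).
RABGEF1: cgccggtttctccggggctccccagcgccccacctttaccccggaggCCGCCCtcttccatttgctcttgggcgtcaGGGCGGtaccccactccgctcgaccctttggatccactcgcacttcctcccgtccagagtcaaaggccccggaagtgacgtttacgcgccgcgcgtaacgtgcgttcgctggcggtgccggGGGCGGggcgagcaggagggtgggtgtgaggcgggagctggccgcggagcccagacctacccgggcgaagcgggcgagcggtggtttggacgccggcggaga
TMEM248: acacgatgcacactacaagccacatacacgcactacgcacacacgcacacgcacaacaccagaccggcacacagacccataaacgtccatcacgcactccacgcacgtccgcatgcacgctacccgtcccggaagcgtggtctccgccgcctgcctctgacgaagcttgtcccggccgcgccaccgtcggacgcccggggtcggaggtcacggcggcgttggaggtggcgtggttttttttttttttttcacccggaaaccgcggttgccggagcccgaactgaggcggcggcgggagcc
The strongest genotype-only promoters of the rest of the chromosome were those of FAM185A, which was knockout-only (chr7:102748749-102749048, plus strand, fold 7.26), and SMKR1, which was control-only (chr7:129502281-129502580, plus strand, fold 4.21).
FAM185A: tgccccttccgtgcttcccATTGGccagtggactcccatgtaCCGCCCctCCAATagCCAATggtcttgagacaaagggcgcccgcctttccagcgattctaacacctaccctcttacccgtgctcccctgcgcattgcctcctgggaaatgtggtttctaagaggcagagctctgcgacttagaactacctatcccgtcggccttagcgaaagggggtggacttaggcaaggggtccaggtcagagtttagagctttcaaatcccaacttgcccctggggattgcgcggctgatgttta
SMKR1: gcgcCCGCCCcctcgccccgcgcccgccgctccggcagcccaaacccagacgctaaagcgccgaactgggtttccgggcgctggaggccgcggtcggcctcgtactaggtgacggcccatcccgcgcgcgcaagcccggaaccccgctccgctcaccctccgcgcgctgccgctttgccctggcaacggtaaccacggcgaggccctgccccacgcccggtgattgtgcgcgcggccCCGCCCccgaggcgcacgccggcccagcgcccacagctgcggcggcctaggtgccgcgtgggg

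The knockout-only promoters of the segment differed among themselves in composition. G and C made up 59% of LINC02848 and 60.3% of LOC105375318, against 51.0% of ZNF727, 52.7% of LOC100128885 and 53.7% of LOC124901660. ZNF727 and LOC100128885 each held 2 matches to CCAAT, and LOC124901660 held the only TATAAA match. The peak covered all 300 bases of LINC02848 and LOC124901660 but 238 bases of LOC105375318, 108 of LOC100128885 and 34 of ZNF727, whose peak began close to the transcription start and ran into the gene. The RABGEF1 promoter had 70.7% G and C with 3 GC boxes, and TMEM248 had 64.3% with none of the motifs. Over all 34961 promoters, 45.03% held a GC box, 34.6% CCAAT, 11.5% TATAAA and 7.68% the AP-1 site. A match is a run of letters and not evidence of a bound factor.

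Chromosome 7 had more knockout-only than control-only regions. Of its 2483 regions, 546 were knockout-only, or 22.0% (exact 95% binomial interval 20.4 to 23.7), against 19.4% on the other chromosomes and 19.6% over all of them. Control-only regions numbered 346, or 13.9% (12.6 to 15.4), against 14.7% on the other chromosomes and 14.7% over all. With both lists held to a −log10 q of at least 5, 24.9% of the regions were knockout-only and 8.47% control-only, against 21.6% and 8.04% on the other chromosomes. With the top 30000 peaks of each list, the shares came closer, at 16.2% knockout-only and 14.5% control-only, against 13.98% and 14.5% on the other chromosomes. Among the 2483 regions of the full lists, the remaining 1591 were shared (64.1%). The intervals cover counting error between regions only and not the spread between cultures. In all, 2184 knockout peaks covered 4520 kb of the chromosome and 1970 control peaks covered 4099 kb.

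Genotype-only regions were narrow, weak and mostly away from genes' ends, here as over all chromosomes. The median width was 824 bp for knockout-only regions and 625.5 bp for control-only regions, against 2129 bp for shared regions. The median of the highest fold in a region was 3.24 in knockout-only, 3.004 in control-only and 7.72 in shared regions. Within 1 kb of an end of a protein-coding gene lay 4.58% of knockout-only regions (2.99 to 6.69) and 6.07% of control-only regions (3.80 to 9.13), against 32.1% of shared regions. Between protein-coding genes, called between genes here, lay 47.6% of knockout-only, 37.0% of control-only and 31.1% of shared regions. Over all chromosomes the values were close, in the same order of classes. Median widths were 765, 673 and 2135 bp, and median highest folds were 3.15, 2.99 and 7.86. Gene ends held 4.77%, 7.32% and 34.5% of regions, and 47.8%, 35.4% and 30.7% lay between genes. A shared region joins peaks of both lists and takes their highest fold, so a greater width and fold are partly built in.

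The class boundary was an overlap of 1 bp, and requiring 50% of the shorter peak gave nearly the same shares (22.6% knockout-only and 14.5% control-only). The shared regions with the shortest overlap were joined by 11 bp (chr7:80019488-80020412, between genes, folds 2.43 in knockout and 2.45 in control) and by 74 bp (chr7:98294761-98295419, in BAIAP2L1 and BRI3). Just outside, in GRB10, a knockout-only region (chr7:50782511-50782949, fold 4.79) and a control-only region (chr7:50783003-50784020, fold 2.93) were counted apart across a gap of 53 bp. In HIP1 such a pair lay 212 bp apart. At the segment's edges, the last region before 60 Mb was the shared one at the gene of the mitochondrial protein CHCHD2 (chr7:56104994-56107210), and the first after 70 Mb was a control-only region in TYW1B (chr7:72801387-72802216, fold 2.78).

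Knockout-only shares were highest in parts of the short arm and in the semaphorin stretch of the long arm. Among the 31 windows of 5 Mb with at least 20 regions, the knockout-only share ran from 7.95% to 49.3%, with a median of 21.2%. It was highest at 15 to 20 Mb, where 37 of 75 regions were knockout-only (49.3%, 37.6 to 61.1) and 3 were control-only. The next were 80 to 85 Mb with 29 of 66 (43.9%, 31.7 to 56.7) and 10 to 15 Mb with 24 of 55 (43.6%, 30.3 to 57.7). The 15 to 20 Mb window holds HDAC9, a class IIa histone deacetylase gene with 8 of the regions. AHR, the gene of the dioxin receptor, was the nearest gene of 7 more, at any distance. Only 2 knockout-only regions lay in AHR or within 100 kb of its ends. In the 10 to 15 Mb window, 4 of the regions lay in DGKB, a diacylglycerol kinase gene. Taken as 1 window of 10 Mb, 10 to 20 Mb held 130 regions and a knockout-only share of 46.9%, which was the highest of 300 such windows in the genome, where the next reached 42.7% and the median was 20%. Its ratio of knockout to control median pileup was 1.10, at rank 282 of the 300 from the highest, where the median was 1.42. At 15 to 20 Mb the median fold of knockout peaks was 3.68, against 5.11 over knockout peaks of the chromosome. These ranks were added after the values were seen.

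The lowest knockout-only shares were at 70 to 75 Mb, with 7 of 88 regions (7.95%, 3.26 to 15.7), at 100 to 105 Mb with 17 of 150 (11.3%, 6.74 to 17.5), and at 140 to 145 Mb with 10 of 86 (11.6%, 5.72 to 20.3). The 70 to 75 Mb window, next to the 60 to 70 Mb segment, carries the Williams syndrome genes. Control-only shares were highest at 155 to 160 Mb, where 7 of the 23 control-only regions lay in DNAJB6, a co-chaperone gene (27.1%), and at 25 to 30 Mb, where 6 of 23 lay in CHN2, the gene of a GTPase-activating protein for Rac (26.1%). The knockout-only share was the higher in 21 of the 31 windows and the control-only share in the other 10. Across these windows the knockout-only share was lower where protein-coding genes were denser (Spearman's rho −0.675, Pearson's r −0.57, n = 31), whereas the control-only share tended the other way (0.41 and 0.29). The windows share both lists and their scaling, so these coefficients describe this chromosome in these lists.

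**Figure D1:**
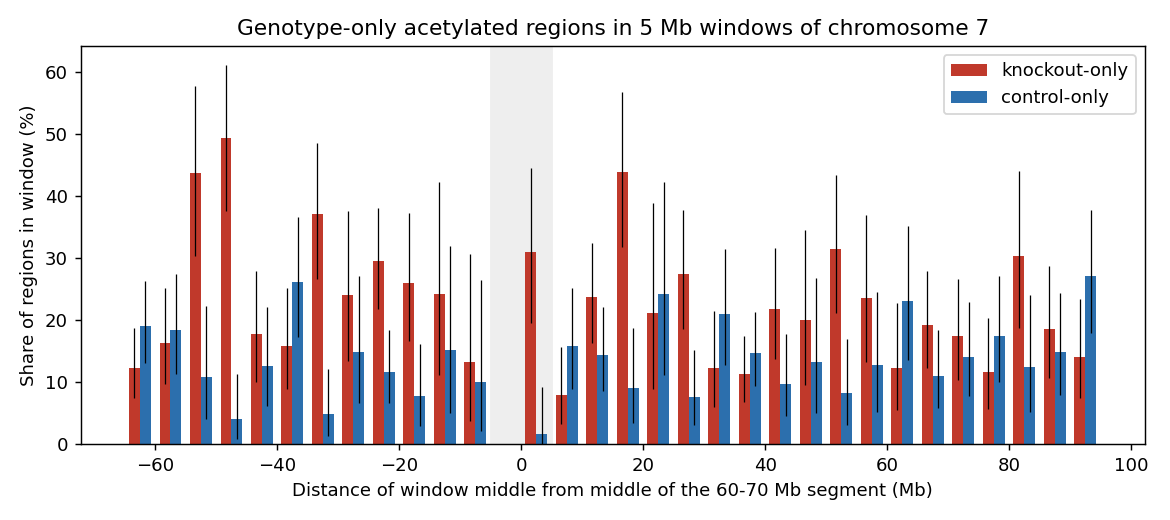
Knockout-only (red) and control-only (blue) shares of acetylated regions, in percent, for the 31 windows of 5 Mb on chromosome 7 with at least 20 regions, placed by distance in Mb from the middle of the 60 to 70 Mb segment (grey band), with exact 95% binomial intervals as bars. The red bars peak at 49.3% and 43.9%, and within the grey band a tall red bar (31.0%) stands beside a blue bar of 1.72%; the window with 13 regions is not drawn.

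Between 60 and 70 Mb almost all genotype-only regions were knockout-only. There 23 of 71 regions were knockout-only (32.4%, 21.8 to 44.5) and 1 was control-only (1.41%, 0.0357 to 7.60), against 523 of 2412 knockout-only (21.7%, 20.1 to 23.4) and 345 control-only (14.3%, 12.9 to 15.8) in the rest of the chromosome. The share of shared regions was alike, 66.2% in the segment and 64.0% in the rest. Of 300 windows of 10 Mb in the genome, this one had the lowest control-only share, the next being 3.33%, while its knockout-only share was at rank 22 from the highest. The segment was chosen with earlier results known, and its ranks were added after the values were seen. They describe the segment and are no test of it. The 60 to 65 Mb window had 5 knockout-only, 0 control-only and 8 shared regions, and 65 to 70 Mb had 18 knockout-only, 1 control-only and 39 shared regions.

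Pileup in the segment was high in the knockout list and low in the control list relative to the rest of the chromosome. In the knockout list the median pileup was 39.2 over 70 peaks of the segment and 28.2 over 2114 peaks of the rest, a ratio of 1.39. In the control list it was 14.99 over 48 peaks of the segment and 19.55 over 1922 peaks of the rest, a ratio of 0.767. Fold enrichment over all peaks was the higher in the segment in both lists, with medians of 6.40 against 5.04 in knockout and 5.50 against 4.98 in control. Among peaks of shared regions alone, fold was the higher in the segment in knockout (9.33 against 6.81) and the lower in control (5.50 against 6.16). These peaks gave pileups of 61.6 against 39.2 in knockout (ratio 1.57) and 15.1 against 24.5 in control (ratio 0.616).

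The approximate background under the peaks parted in the same place. It is the pileup plus 1 divided by the fold, minus 1, and it stands for the level that the caller set the peak against. In the knockout list its median was 5.32 in the segment and 4.62 in the rest (ratio 1.15), and segment peaks ran from 2.56 to 9.20. In the control list it was 1.76 in the segment and 2.94 in the rest (ratio 0.600), and segment peaks ran from 1.73 to 2.41. The lowest background of any peak was 2.41 in the knockout list and 1.73 in the control list. Within 5% of that lowest value lay 0 of 70 knockout peaks in the segment against 69 of 2114 in the rest (3.26%), and 31 of 48 control peaks in the segment (64.6%, 49.5 to 77.8) against 118 of 1922 in the rest (6.14%, 5.11 to 7.31). Of the 300 windows of 10 Mb, this one had the lowest control background (the next was 1.82) and the highest ratio of knockout to control background, at 3.02 with a median of 1.42 and a next value of 2.55. These ranks, too, describe a segment chosen with earlier results known. In this segment both the background and the class shares stood apart from the rest, and the part of the background in the shares was not tested.

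**Figure D2:**
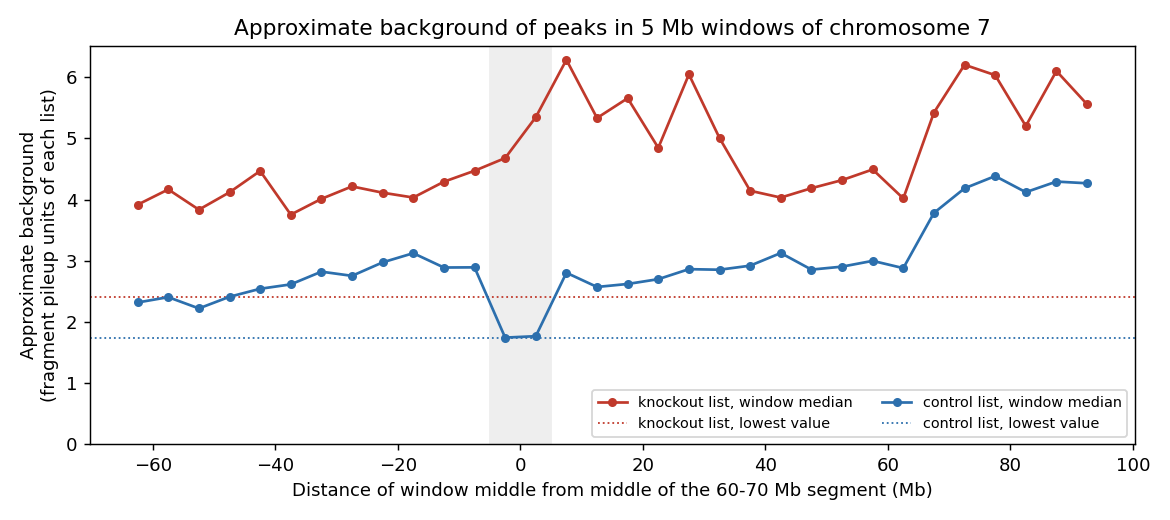
Median approximate background of peaks in each 5 Mb window of chromosome 7, in the fragment pileup units of each list, for the knockout (red) and control (blue) lists, against the distance in Mb from the middle of the 60 to 70 Mb segment (grey band), with dotted lines at the lowest value of each list. Inside the band the control line comes close to the list's lowest value of 1.73 while the knockout line stays well above 2.41.

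A raised ratio of backgrounds reached beyond the segment on the long arm. From 70 to 100 Mb the median background was 5.47 in knockout and 2.76 in control, a ratio of 1.98, against 1.56 from 0 to 60 Mb, 1.42 from 100 to 130 Mb and 1.39 from 130 to 160 Mb. These blocks were drawn after the values were seen. Knockout-only regions made up 24.9% of the 946 regions from 0 to 60 Mb, 22.2% of the 477 from 70 to 100 Mb, 18.8% of the 480 from 100 to 130 Mb and 17.9% of the 509 from 130 to 160 Mb. Over the 31 windows of 5 Mb, the background ratio and the knockout-only share had a Spearman's rho of 0.124 and a Pearson's r of 0.196 (n = 31). The 10 to 20 Mb stretch, with the highest knockout-only share, had a background ratio of 1.70. The 70 to 75 Mb window, with the lowest knockout-only share (7.95%), had a background ratio of 2.24.

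Shared regions of the segment all had a knockout to control pileup ratio above the median of the genome. In the 47 shared regions with 1 peak per list, the ratio of knockout to control pileup had a median of 4.04 and ran from 1.61 to 8.58. The median was 1.63 in 1475 such regions of the rest of the chromosome and 1.55 in 30509 over all chromosomes, and all 47 lay above 1.55. The ratio of backgrounds had a median of 3.09 in the segment, against 1.54 in the rest and 1.44 over all chromosomes. The ratio of folds had a median of 1.60 in the segment, against 1.11 in the rest and 1.12 over all chromosomes. Of the control peaks of shared regions, 30 of 47 in the segment (63.8%) had a background within 5% of the list's lowest value. In the rest it was 3.80%. Whether a background so near the lowest value is the local level is not known, so the fold ratio may still carry it. Knockout fold was the higher in 39 of the 47, and the knockout peak was the wider in 36. Ratios between the lists carry their unknown scaling, which is why each is set beside the value over all chromosomes. The 13 regions at gene ends had a median pileup ratio of 4.33 and the 34 away from gene ends one of 3.62. From 70 to 100 Mb, 293 such regions had median ratios of 2.05 for pileup, 1.95 for background and 1.11 for fold.

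**Figure D3:**
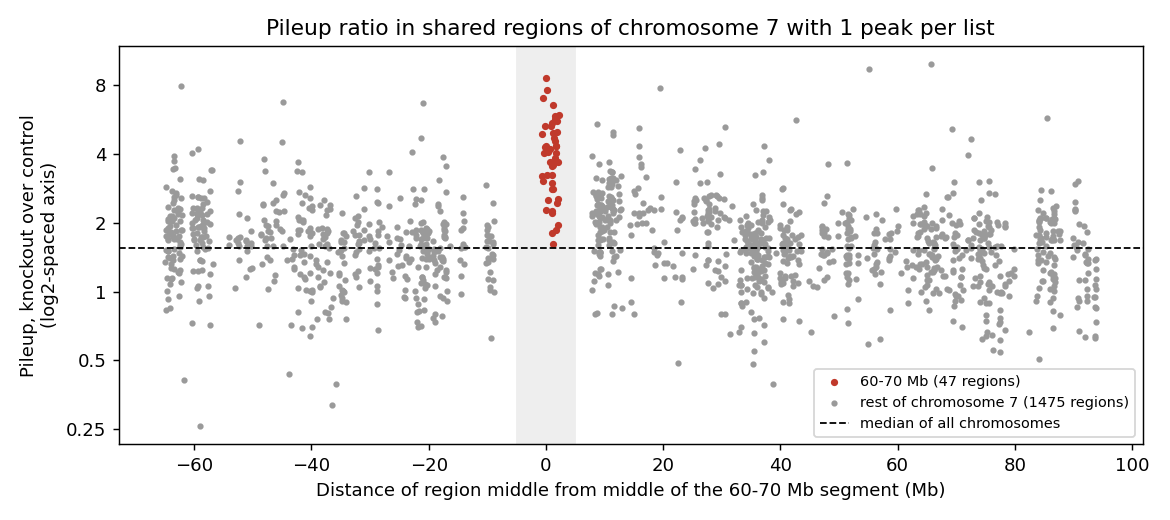
Ratio of knockout to control pileup (log2-spaced axis) for each shared region of chromosome 7 with 1 peak per list, against the distance in Mb of its middle from the middle of the 60 to 70 Mb segment, with 47 segment regions in red and 1475 others in grey. All red points lie above the dashed median of all chromosomes (1.55), while grey points spread on both sides of it.

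The 23 knockout-only regions of the segment lay mainly between protein-coding genes. There were 17 between such genes (73.9%, 51.6 to 89.8), 5 in a gene body and 1 at a gene end. Other kinds of gene were not used for the places. The 17 thus include the regions on the printed promoters of LINC02848, LOC105375318, LOC100128885 and LOC124901660. Between genes lay 46.5% of knockout-only regions in the rest of the chromosome and 47.8% over all chromosomes. Of all 71 regions of the segment, 50.7% lay between genes. The region of highest fold (chr7:63925717-63927189, fold 13.7, pileup 48.3, background 2.61) overlapped the LOC105375318 promoter shown above, 71.7 kb from the nearest protein-coding gene end, that of ZNF722, and 379438 bp from any control peak. The next was at ZNF727 (chr7:64045450-64046463, fold 6.91, pileup 38.2, background 4.68), 260164 bp from a control peak. They were followed by a region 74.2 kb from ERV3-1-ZNF117 (chr7:65080901-65081621, fold 6.48), one in a stretch without protein-coding genes (chr7:68705246-68708697, fold 6.08) and the LOC100128885 region 11.6 kb from ZNF680 (chr7:64574637-64575366, fold 5.70). That stretch held 3 knockout-only regions in a row, 889.8 to 905.5 kb from AUTS2, a neurodevelopmental gene, with folds of 2.77, 2.93 and 6.08 and the nearest control peak 1388012 bp away.

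The single control-only region of the segment was weak. It lay in TYW1, a gene of tRNA modification (chr7:67223539-67224253), with a fold of 2.86 and a pileup of 6.88, and a knockout-only region of fold 3.89 in the same gene began 1880 bp from it. The other knockout-only regions of the segment, outside the 5 of highest fold, had folds from 2.40 to 5.21, and they included 1 in ZNF680, 1 in TPST1, 1 in KCTD7 and 1 in RABGEF1. Knockout-only peaks of the segment had a median background of 4.09 and a median fold of 3.48, against 4.02 and 3.24 for knockout-only peaks in the rest of the chromosome.

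Most genes of the segment that had a peak at an end had it in both genotypes. Of 38 protein-coding genes with an end in the segment, 15 had a peak within 1 kb of an end in each list, ZNF727 in knockout alone, 0 in control alone and 22 in neither. On the whole chromosome 21 of 938 genes had such a peak in knockout alone (2.24%) and 18 in control alone (1.92%), against 1.72% in knockout alone and 1.84% in control alone over all 19974 protein-coding genes. With both lists at a −log10 q of at least 5, the counts were 33 in knockout alone (3.52%) and 14 in control alone (1.49%), against 2.31% and 1.36% over all genes.

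Among 10 KRAB zinc finger genes of the segment, ZNF727 was knockout alone, 5 had a peak in both lists and ZNF735, ZNF679, ZNF273 and ZNF117 in neither. Pileup at ZNF736 was 68.3 in knockout and 14.0 in control. At ZNF680 it was 68.8 in knockout and 9.75 in control, where the control peak of the shared region stopped short of the promoter. At ZNF92 it was 64.0 in knockout and 15.6 in control. ZNF107 (51.75 in knockout, 12.75 in control) and ZNF138 (45.5 in knockout, 10.5 in control) had the lowest knockout values of the 5. Pileups of the lists carry their unknown scaling. The ratio of knockout to control was 4.06 at ZNF107 and 4.32 at ZNF138, beside a median of 1.55 in shared regions over all chromosomes. ZNF273 had a promoter peak in both lists although none lay within 1 kb of a gene end, since its RefSeq promoter lies inside the gene as listed (57.5 in knockout and 10.8 in control). Zinc finger genes of this family are similar in sequence, so reads there may be shared between copies.

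Of 12 other genes of the segment, 9 had a peak at an end in each list and VKORC1L1, TPST1 and AUTS2 in neither. The highest knockout pileup was at CRCP, the gene of a component of the CGRP receptor and of RNA polymerase III, with 180.4 in knockout and 32.9 in control. TMEM248 followed with 169 in knockout and 30.1 in control, and KCTD7, the gene of an adaptor of a ubiquitin ligase, with 152 in knockout and 26.6 in control. At RABGEF1, which activates the endosomal GTPase RAB5, the shared region of highest fold in the segment (chr7:66739510-66743956) had folds of 25.6 in knockout and 12.3 in control and pileups of 143 in knockout and 33.1 in control. SBDS, a ribosome maturation gene, and TYW1 shared a peak of 68.4 in knockout and 18.5 in control. GUSB, the lysosomal beta-glucuronidase gene, had 61.2 in knockout and 17.2 in control. ERV3-1, a gene of retroviral origin, had 61.6 in knockout and 14.2 in control, and ASL, a urea cycle enzyme gene, had 53.3 in knockout and 16.4 in control. TPST1 (119 in knockout, 18.2 in control) and VKORC1L1 (73.6 in knockout, 13.9 in control) had a promoter peak in both lists inside the gene as listed. In each of these genes the knockout value was over the control value by more than the 1.55 that was the median over all chromosomes.

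**Figure D4:**
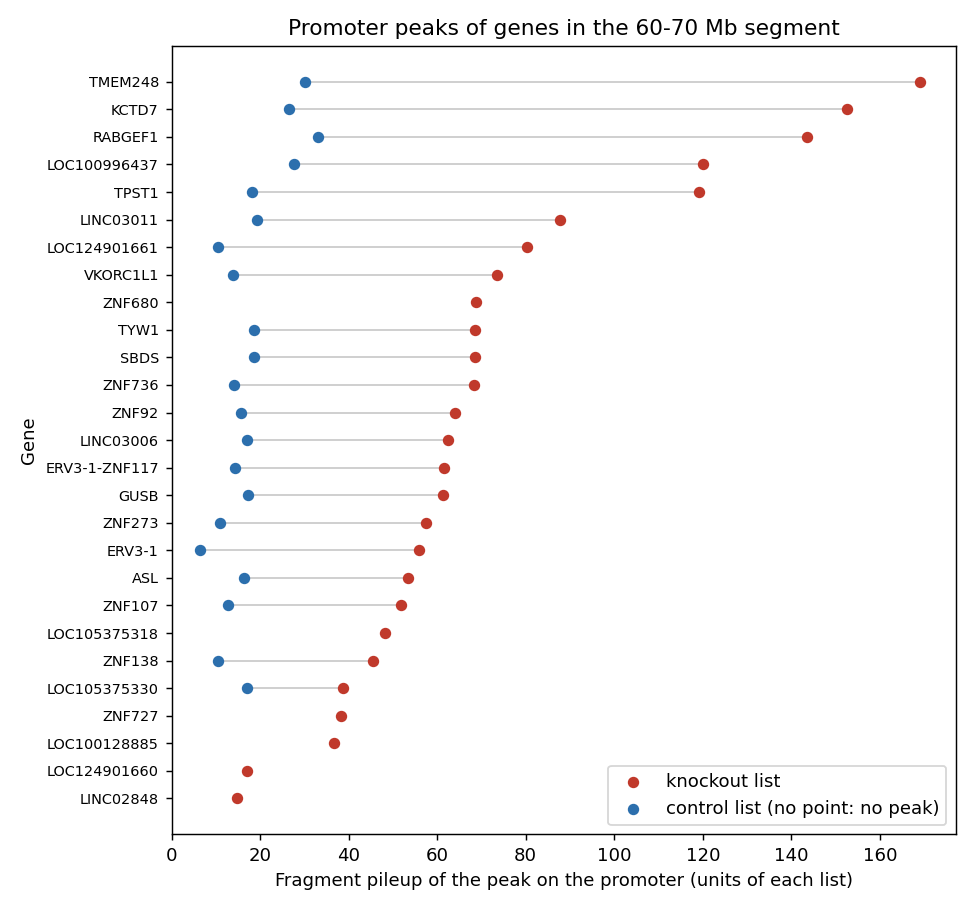
Fragment pileup, in the units of each list, of the peak on the promoter of each gene of the 60 to 70 Mb segment with such a peak, for the knockout (red) and control (blue) lists, with 1 promoter per gene, that of highest knockout fold. Red points lie to the right of the blue point in every gene with both, from TMEM248 (169 in knockout and 30.1 in control) downward, and 6 genes have a red point alone. The scaling of the lists is unknown, and the median ratio of knockout to control pileup in shared regions was 1.55 over all chromosomes.

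By promoters, 87 RefSeq windows of the segment gave 6 with a peak in knockout alone, 0 in control alone, 26 in both and 55 in neither. The 6 were the 5 printed above and ZNF680, whose region was shared. As shares of the 87, 6.90% were in knockout alone and 29.9% in both. Outside the segment, 33 of 1692 promoters were in knockout alone (1.95%), 24 in control alone (1.42%) and 714 in both (42.2%). Over all 34961 promoters the shares were 1.66%, 1.45% and 45.8% in the same order. In the segment, the median G and C content was 55.5% in promoters of knockout alone and 62.3% in those of both lists, and the GC box was in 2 of 6 against 18 of 26. Over all chromosomes the median was 54.5% for 580 promoters in knockout alone and 66.0% for 16017 in both, so the order in the segment was that of the genome.

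Outside the segment, the strongest knockout-only region ranked higher in its list than the strongest control-only region did in its own. The knockout-only region of highest fold lay between genes, 12.8 kb from KBTBD2 (chr7:32904964-32906805, fold 20.1, pileup 73.75). It was followed by regions in ELAPOR2 (chr7:87038636-87040494, fold 11.9), in POMZP3 (chr7:76618265-76621147, fold 10.2), in SEMA3A, a secreted axon guidance semaphorin gene (chr7:84371410-84373616, fold 9.79), and 66.4 kb from SPDYE17 (chr7:76954378-76955933, fold 9.73). POMZP3 and the SPDYE genes belong to duplicated sequence with similar copies, so reads there may be shared. In the control list the highest was a region in SDK1, an immunoglobulin-type cell adhesion gene (chr7:4005738-4007411, fold 7.64). Other high control-only regions were a 5.18 kb region between genes (chr7:6925683-6930862, fold 7.36) and regions 35.9 kb from HERPUD2 (chr7:35596247-35596723, fold 6.80) and 84.3 kb from CCDC71L (chr7:106568237-106570074, fold 6.49). In percentiles of their own lists, the highest knockout-only fold was at 95.04 and the highest control-only fold at 67.0.

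Some genotype-only regions came in runs along 1 gene, mostly a long one. Each region was given to the gene it touched or, failing that, to the nearest gene end within 100 kb, and the genes below were chosen after their counts were seen. There were 12 genes with at least 6 knockout-only regions, which held 80 of the 546 such regions (14.7%), and 4 with at least 6 control-only regions, which held 28 of 346 (8.09%). As a share of protein-coding genes these were 1.28% and 0.426% on the chromosome, against 0.666% and 0.21% over all chromosomes. The median length was 305 kb for the 12 genes and 224 kb for the 4, against 27.3 kb over the genes of the chromosome, and the part of gene length in the runs was not tested. HDAC9 had 9 knockout-only, 0 control-only and 10 shared regions, and its knockout-only folds ran from 2.69 to 5.36. PDE1C, a calmodulin-dependent phosphodiesterase gene, had 8 knockout-only regions beside 1 shared, with folds from 2.58 to 4.58. TNS3, the gene of a focal adhesion protein, had 8 knockout-only, 2 control-only and 13 shared regions, and GLI3, a Hedgehog pathway transcription factor gene, had 7, 0 and 5 in the same order. The 6 knockout-only regions of BMPER, a modulator of BMP ligands, and of NRCAM, a cell adhesion gene, all lay in or at the end of the gene, and neither gene had a control-only region. The 6 given to BET1, a vesicle transport gene, all lay outside it.

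SEMA3A and its relative SEMA3C had 6 knockout-only regions each, with 2 control-only regions at SEMA3A and 0 at SEMA3C. CAV2, a caveolin gene, also had 6 knockout-only and 0 control-only regions, and GRB10, an adaptor that restrains insulin receptor signalling, and CUX1, a homeobox gene, had 6 knockout-only and 1 control-only region each. In the other direction, SDK1 had 9 control-only regions with folds from 2.85 to 7.64, and no knockout-only or shared region. DNAJB6 had 0 knockout-only, 7 control-only and 5 shared regions, and CHN2 had 0, 6 and 1 in the same order. YWHAG, a 14-3-3 protein gene, had 1 knockout-only, 6 control-only and 5 shared regions. The runs of DNAJB6, CHN2 and YWHAG consisted of weak peaks, with folds of at most 3.06, 3.69 and 3.08.

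**Figure D5:**
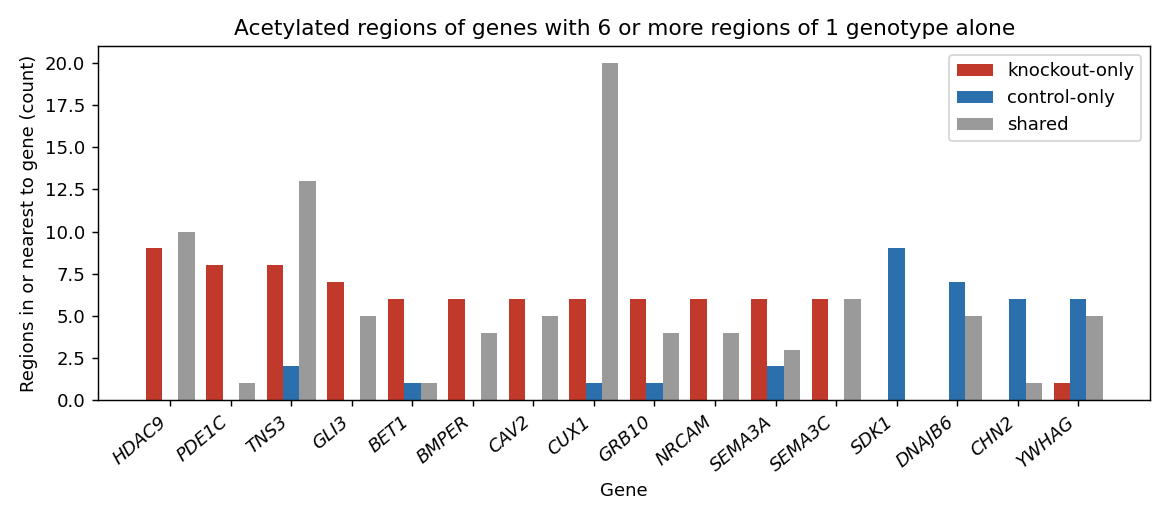
Number of knockout-only (red), control-only (blue) and shared (grey) regions in or nearest to each chromosome 7 gene that had at least 6 regions of 1 genotype alone. The 12 genes on the left, led by HDAC9 with 9, have red runs, and the 4 on the right, led by SDK1 with 9, have blue runs.

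Over 10 lists of chromosome 7 genes by role or position, 84 of 129 genes were acetylated within 1 kb of an end in both genotypes (65.1%), against 58.3% of the protein-coding genes of the chromosome and 61.1% over all chromosomes. The number ran from 4 of 14 xenobiotic and transporter genes to 9 of 9 cell cycle and replication genes. Examples of the cell cycle list were CDK6 (fold 21.1 in knockout and 17.2 in control) and MCM7, a replicative helicase subunit gene (20.3 in knockout and 12.9 in control). A peak in both lists was also found at 12 of 14 growth factor signalling genes, such as EGFR, MET (14.3 in knockout and 12.01 in control) and BRAF (23.5 in knockout and 21.4 in control), and neither list had one at HGF or SMO. Around these 14 genes, 22 regions were knockout-only (26.8%), 5 control-only (6.10%) and 55 shared, beside 22.0% and 13.9% for the whole chromosome, with GRB10 and CAV2 giving 6 knockout-only regions each. Of 12 chromatin genes 10 had a peak in both, such as EZH2, the H3K27 methyltransferase gene (22.2 in knockout and 16.8 in control), and neither list had one at the BAF subunit genes ACTL6B and SMARCD3. Of 23 Williams syndrome segment genes 19 had a peak in both and none in 1 list alone, and their 74 regions were 6 knockout-only (8.11%), 11 control-only (14.9%) and 57 shared.

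A few list members had a peak at an end in 1 list alone. Among 14 xenobiotic and transporter genes, 4 had a peak in both lists, 8 in neither, AKR1B10, an aldo-keto reductase gene, in knockout alone (fold 3.53) and CYP3A5, a cytochrome P450 gene, in control alone (3.76). Of 15 matrix, adhesion and semaphorin genes 7 had a peak in both lists, 7 in neither and SEMA3E in control alone (4.05). Of 7 inflammatory genes 6 had a peak in both, such as IL6 (21.5 in knockout and 11.2 in control). Of 16 developmental transcription factor genes 6 had a peak in both and 10 in neither, among them TWIST1 and GLI3. The 7 knockout-only and 5 shared regions of GLI3 thus all lay away from its ends.

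A peak at a gene end in 1 list alone did not always mean a region of 1 genotype alone. Of the 21 genes in knockout alone, 16 had a knockout-only region and 5 a shared region there, and of the 18 in control alone, 15 had a control-only region and 3 a shared one. The highest folds of both groups belonged to the shared kind, at MACC1, a gene known for raising MET expression in colon cancer (10.6, knockout alone), and at NOS3, the endothelial nitric oxide synthase gene (12.4, control alone). There the peak of the other list overlapped the same region but stopped short of the window. These genes were named after their values were seen.

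The widest peaks of the chromosome overlapped between genotypes but were cut differently. The widest knockout peak spanned 37.95 kb between genes, 149.8 kb from KLF14 (chr7:130884007-130921956, fold 13.3), and lay wholly inside the widest control peak of 52.8 kb (chr7:130877492-130930257, fold 11.4), which met 4 knockout peaks covering 78.6% of it. Other wide knockout peaks were 27.8 kb at 59.6 kb from STEAP1B (chr7:22559819-22587661), 17.3 kb in GNA12, a G protein subunit gene, and 17.3 kb near PODXL. Other wide control peaks were 28.01 kb at RAC1, a small GTPase gene, where 5 knockout peaks covered 68.2%, 19.6 kb in EGFR and 16.1 kb of which the nearest gene end was that of MKLN1.

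Of 68 miRNA hairpins of the chromosome, 8 touched a peak in both lists, 3 in knockout alone, 2 in control alone and 55 in neither. The shares in 1 list alone were 4.41% in knockout and 2.94% in control, against 1.48% and 1.99% over 1558 hairpins of all chromosomes, and 2 of the 3 in knockout alone were 1 stretch. MIR550A1 and MIR550B1, on opposite strands of the same stretch (chr7:30289794-30289890), lay in a knockout-only region of fold 2.58. MIR29B1 (chr7:130877459-130877539, minus strand) was met by the edge of the widest control peak but not by the knockout peaks of that shared region. The miR-29 family is known to target mRNAs of collagens and other matrix proteins. A mature miRNA of each locus is given with its seed (bases 2 to 8) in capitals.
hsa-miR-550a-5p: aGUGCCUGagggaguaagagccc
hsa-miR-29b-3p: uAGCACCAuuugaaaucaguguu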

How the data were processed

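The submitters' processing notes name Bowtie2 2.3.5.1, MACS2 2.2.6 and the build hg38, and the authors deposited peak lists only. Options, read filters, library depths and any pooling of replicates are not given in the sources used here. A deposited line holds, per the file headers, a peak's position, width, mean fragment pileup (a coverage signal), −log10 p-value and −log10 q-value, and fold enrichment (a ratio). The values are the authors', and its name, which states genotype and library type, assigns each list.

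Peaks on 23 chromosomes were merged at an overlap of at least 1 bp in Python 3.11.15 with numpy 2.4.6 and pandas 2.3.3, and bedtools 2.31.1 gave the same number of regions. The merging was tested on simulated data. Approximate background was (pileup + 1) / fold − 1. A region belongs to the window that holds its middle, and windows under 20 regions have counts only. Exact Clopper-Pearson intervals came from scipy 1.17.1 at 95% and cover counting error only. Plots used matplotlib 3.10.9. Genes and promoters were RefSeq's on GRCh38.p14, without exons, so a gene end is 1 kb around either end of the listed gene. Regions were placed against protein-coding genes only, so a region between genes may lie on a gene of another kind.

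The genotype was not tested, since each had 1 list. Named regions were the 5 of highest fold per class and segment, the 5 widest peaks per list and the 3 highest and 3 lowest windows. Named genes were those of 60 to 70 Mb with a peak at an end, members of the 10 gene lists (129 symbols) with a peak in 1 list alone, and examples with a peak in both. A few of these regions and genes are not reported here. Printed promoters were the knockout-only ones of the segment, the 2 strongest shared ones and the strongest genotype-only ones elsewhere. Members, lists and rules were chosen with earlier results of these data known, and the blocks, gene runs, promoter counts, miRNAs, shared-region ratios and ranks among windows of 10 Mb were added after the values were seen. Alternatives were a −log10 q of at least 5, the top 30000 peaks of each list by −log10 p, other overlap rules, moved segment edges, gene-end windows of 2 kb, shared peaks alone and pileup over fold as background.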

Additional observations from a re-analysis of the deposited data

How the results depend on the processing

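Of 44 alternatives over 13 results, 34 left the value within its error or its count within 1.5 times, and 10 moved it. With both lists at a −log10 q of at least 5, which left 31598 knockout and 26745 control peaks, the knockout-only share came to 24.9% on chromosome 7 and 24.2% outside 60 to 70 Mb, the control-only share to 8.47% on the chromosome, 8.76% outside the segment and 0% in it, the share of regions at gene ends to 30.9%, and the number of genes with an end acetylated in knockout alone to 33. With the top 30000 peaks of each list, the knockout-only share came to 16.2% on the chromosome and 15.7% outside the segment, and the control-only share of the segment to 0%, while the control-only share of the chromosome was 14.5%. The cause was not tested. The knockout-only share of the segment ran from 29.6% to 42.9% over its alternatives. Moved to 61 to 71 Mb or to 59 to 69 Mb, the segment held the same 71 regions. Those alternatives therefore could not move its shares, although they are counted among the 34. The ratio of the segment to the rest ran from 1.13 to 1.20 for knockout background, from 0.567 to 0.695 for control background, from 1.26 to 1.57 for knockout pileup and from 0.585 to 0.767 for control pileup.

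No paired analysis was possible because each genotype had 1 peak list, and for the same reason no replicate was left out. Depth and scaling of the lists were unknown, so a missing peak is a peak not called and not an absence of acetylation.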
